A study of Mus musculus with 10 samples.

Results

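This account describes 43 mouse genes of the cell cycle, chosen by name as genes of S phase, G2 and mitosis, in inguinal white adipose tissue (iWAT). They are 43 of the 33120 genes for which the deposited annotation gives an exon length, out of 51826 genes listed. RNA-seq of rRNA-depleted total RNA was carried out on 10 male C57BL/6 mice, with 1 library per mouse. The F0 mice were 2 males fed a control diet (CD) and 2 males fed a low-protein diet (LPD) from weaning, at 10 to 12 weeks of age. The F1 mice were 3 sons of CD fathers and 3 sons of LPD-fed fathers (pLPD offspring), born to 3 different mothers in each group, at 5 weeks of age. The colony had been kept on CD for 2 generations, the mothers were fed CD, and all F1 mice were themselves fed CD after weaning. The study's aim was to find how the father's diet affects expression in the offspring's fat. The age of the mice, their generation and the series of sample codes in the labels change together, so these cannot be told apart when F1 is compared with F0.

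Cells that divide make the proteins of the cell cycle in waves. Early in the cycle, cyclin D and cyclin E partner with cyclin-dependent kinases to release E2F factors, which switch on genes for DNA replication. Later, cyclin A and cyclin B with Cdk1, Foxm1 and the mitotic kinases drive the assembly of the spindle and the separation of chromosomes. In fat, mature adipocytes are mostly out of the cycle, and division is known chiefly in progenitors, endothelial cells and immune cells, some of them in the lymph node that lies inside the inguinal fat pad. In bulk tissue, fewer cells of a type and less RNA per cell cannot be told apart.

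Promoters of such genes often carry E2F sites, CCAAT boxes or a cell cycle homology region (CHR). The 250 bases before the RefSeq start (GRCm38.p6) were at hand for 34 of the 43 genes, and those of Stmn1, Foxm1, Kif20a, Ccna2, Ccne2, Mcm4, Aurkb, Ccnd1 and Tpx2 were not analysed here. The letters searched on both strands were TTTCCCGC, TTTGGCGC, TTTCGCGC and TTTGCCGC for E2F, TTTGAA and TTCGAA for the CHR, and CCAAT for the CCAAT box, and overlapping matches were counted. Windows of 6 genes are shown in gene orientation with the matched letters in capitals: 4 genes of mitosis and chromosome structure that were higher in F1, and a pair of helicase genes of which Mcm6 was higher in F1 and Mcm5 was not. Their positions are chr19:37376132-37376381 (plus strand) for Kif11, chr11:99024190-99024439 (minus strand) for Top2a, chr9:70421555-70421804 (minus strand) for Ccnb2, chr7:135716380-135716629 (minus strand) for Mki67, chr1:128359706-128359955 (minus strand) for Mcm6 and chr8:75109259-75109508 (plus strand) for Mcm5.
Kif11: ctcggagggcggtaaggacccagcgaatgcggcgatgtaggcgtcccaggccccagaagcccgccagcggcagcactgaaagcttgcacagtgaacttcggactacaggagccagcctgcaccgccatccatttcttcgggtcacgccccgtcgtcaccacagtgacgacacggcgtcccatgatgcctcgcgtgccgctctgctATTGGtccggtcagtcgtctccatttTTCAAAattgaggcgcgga
Top2a: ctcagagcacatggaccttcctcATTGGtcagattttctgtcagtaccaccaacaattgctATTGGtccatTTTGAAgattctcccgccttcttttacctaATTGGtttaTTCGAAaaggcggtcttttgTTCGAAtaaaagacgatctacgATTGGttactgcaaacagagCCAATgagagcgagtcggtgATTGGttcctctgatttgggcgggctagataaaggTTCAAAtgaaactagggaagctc
Ccnb2: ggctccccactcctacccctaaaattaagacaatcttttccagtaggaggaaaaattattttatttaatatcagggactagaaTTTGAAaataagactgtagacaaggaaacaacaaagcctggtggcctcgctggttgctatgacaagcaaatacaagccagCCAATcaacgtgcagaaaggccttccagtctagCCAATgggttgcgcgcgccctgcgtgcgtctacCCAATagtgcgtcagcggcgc
Mki67: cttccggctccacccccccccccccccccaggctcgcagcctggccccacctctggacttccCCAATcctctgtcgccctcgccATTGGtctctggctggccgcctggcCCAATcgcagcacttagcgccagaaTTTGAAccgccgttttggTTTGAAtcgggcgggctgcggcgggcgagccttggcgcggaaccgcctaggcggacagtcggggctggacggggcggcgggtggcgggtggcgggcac
Mcm6: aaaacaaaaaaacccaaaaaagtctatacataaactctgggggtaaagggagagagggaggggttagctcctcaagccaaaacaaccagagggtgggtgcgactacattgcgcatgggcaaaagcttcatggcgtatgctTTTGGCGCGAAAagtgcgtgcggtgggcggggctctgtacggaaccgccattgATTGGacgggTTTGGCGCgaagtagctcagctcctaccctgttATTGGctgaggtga
Mcm5: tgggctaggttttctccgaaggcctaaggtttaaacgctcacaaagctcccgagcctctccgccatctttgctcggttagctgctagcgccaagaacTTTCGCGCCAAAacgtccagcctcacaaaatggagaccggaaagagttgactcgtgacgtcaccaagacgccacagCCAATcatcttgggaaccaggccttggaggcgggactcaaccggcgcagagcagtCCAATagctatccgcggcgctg
Kif11 held a CHR that began 19 bases before the start and a CCAAT box at 45 bases, and Top2a held 4 CHR and 6 CCAAT matches. The Mcm6 and Mcm5 windows held 3 and 2 E2F matches, some of them overlapping, and no CHR.

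Among the 34 genes, 26 (76.5%) held a CCAAT box, against 37.5% of the 27025 genes with such a window. A CHR was found in 14 (41.2%), against 19.6% of all genes, and an E2F match in 5 (14.7%), against 2.16%. None of these 5 genes was among the 15 genes of mitosis and the spindle, of which 8 held a CHR and 13 a CCAAT box. The 15 leave out the cyclins and Cdk1, which were grouped apart. Cdk1, the kinase of the mitotic cyclins, was among the 5, with 1 E2F match and 2 CHR matches. Ccnb1 and Ccnb2 held no E2F match. Of the 13 genes of replication and nucleotide synthesis, 4 held an E2F match, 3 a CHR and 9 a CCAAT box. A match is a description of the letters only, and these genes were chosen for a shared function, so no test was made.

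All 43 genes were detected in every mouse, with 5 to 764 exon reads each, and only 3 of them had fewer than 10 reads in any mouse. Total exon reads were 6351075 to 10044546 per library, so that 3 reads, the lowest level told from none by counting error alone, stood for 0.3 to 0.468 CPM (counts per fixed total of exon reads, after TMM scaling between libraries). The share of reads on protein-coding genes that lay on exons was 62.1% to 64.0% in 7 libraries, but 51.6%, 58.2% and 59.3% in the pLPD offspring. Adipocyte markers summed to 14520.3 to 18849 CPM in F0 and 11278 to 13660.4 CPM in F1. For 10 of the 43 genes under 90% of exon reads matched a single place in the genome, with the lowest shares in Tk1 (13.2%), Ccne2 (47.0%), Prc1 (48.5%), Ccnd1 (53.9%) and Cdt1 (56.2%). The others were Pcna, Ccnb1, Stmn1, Ccna2 and Kif20a, at 60.8% to 86.1%, and values of all 10 are uncertain to that extent.

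Pcna, the sliding clamp of DNA polymerases, had the highest level, at 18.5 CPM per kilobase in F0 and 17.7 in F1. Ccnd1 followed, at 7.92 in F0 and 9.72 in F1. Mki67, which encodes the proliferation antigen Ki-67, stood at 4.84 in F0 and 7.95 in F1, above all genes of the spindle in F0 and in F1. The lowest levels belonged to E2f8, at 0.332 in F0 and 0.459 in F1, and to Bub1, at 0.386 in F0 and 0.487 in F1. Levels per kilobase depend on the exon length given in the deposited files.

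**Figure D1:**
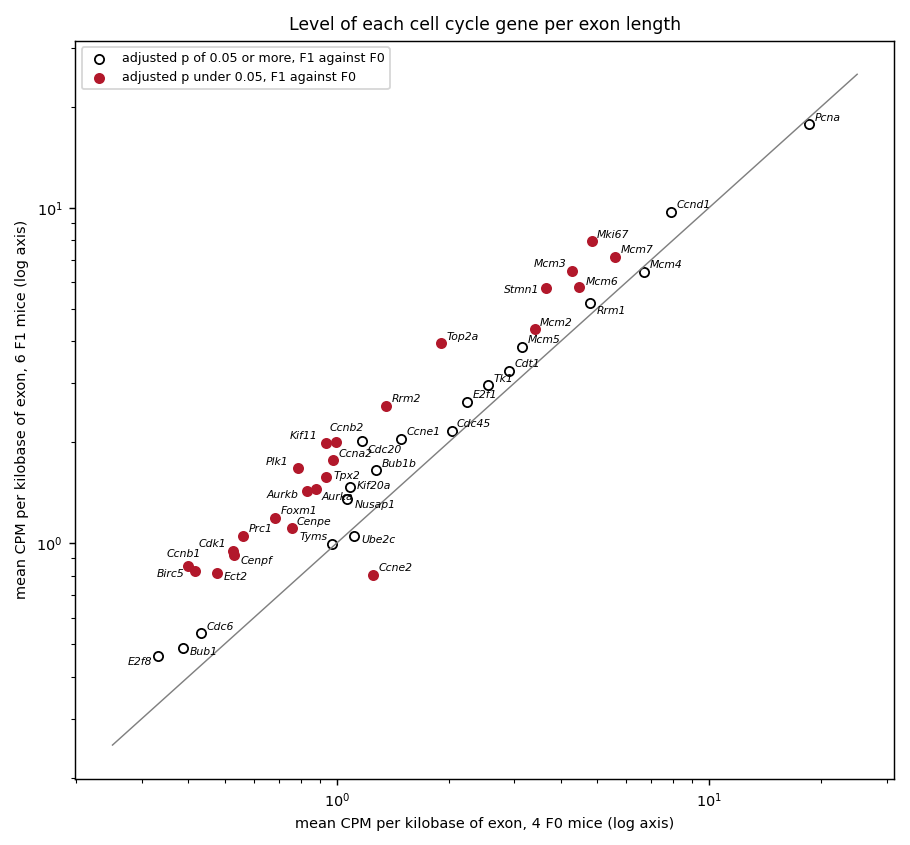
Mean CPM per kilobase of exon of the 43 genes in the 4 F0 mice (x axis) and the 6 F1 mice (y axis), both on log axes, with the line of equal levels. Filled points passed an adjusted p of 0.05 between F1 and F0, and all of them but Ccne2 lie above the line, while Pcna lies close to it.

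The first comparison asks how the cell cycle genes of the 5-week-old F1 mice differed from those of the 10- to 12-week-old F0 males, over both diet groups. All F1 mice ate CD themselves, so own diet also differed between F1 and the LPD-fed F0 males. Of the 43 genes, 23 (53.5%) were higher in F1 and 1 was lower, in edgeR's quasi-likelihood test with Benjamini-Hochberg adjustment over 15111 genes and a threshold of 0.05. Over all genes tested, 16.4% were higher and 16.1% lower (2474 and 2432 genes), and 32.5% were called in either direction. The median log2 fold change of the 43 genes was 0.45, against 0.0046 over all genes, with a range of −0.65 to 1.10. The log2 fold change was positive for 39 of them (90.7%), compared with 50.6% of all genes. In 13 of them (30.2%), every F1 mouse lay above every F0 mouse, against 10.2% of all genes, and in none did every F1 mouse lie below (9.87% of all genes). At an unadjusted p under 0.05, 28 were higher (65.1%, against 21.4%). The genes called higher included 8 of 10 genes of the spindle but 4 of 10 of replication and 1 of 4 of nucleotide synthesis, and the difference between these roles was not tested.

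Of the 23 genes, 12 passed whichever mouse was left out, and Ccnb2, Mcm2, Aurka, Aurkb and Cenpe passed in 3 or fewer of the 10 such fits. Without the CD-fed F0 male number 2, which was the lowest F0 mouse for 21 genes, 12 genes were higher, and with each library's exon share in the fit 8 were. Over all genes, the fit with the exon share called 1759 of 15111 higher, against 2474 in the main fit. Between the CD groups alone 8 of the 43 were higher, against 1434 of 14766 genes, in a fit of fewer mice. Between pLPD offspring, themselves fed CD, and LPD-fed F0 males 11 were higher, against 1182 of 14299 genes, also with fewer mice. On the deposited RPKM values, where the median of all genes moved to −0.17 and the calls over all genes were split into 1082 higher and 4239 lower, 13 of the 43 were higher and 1 lower.

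**Figure D2:**
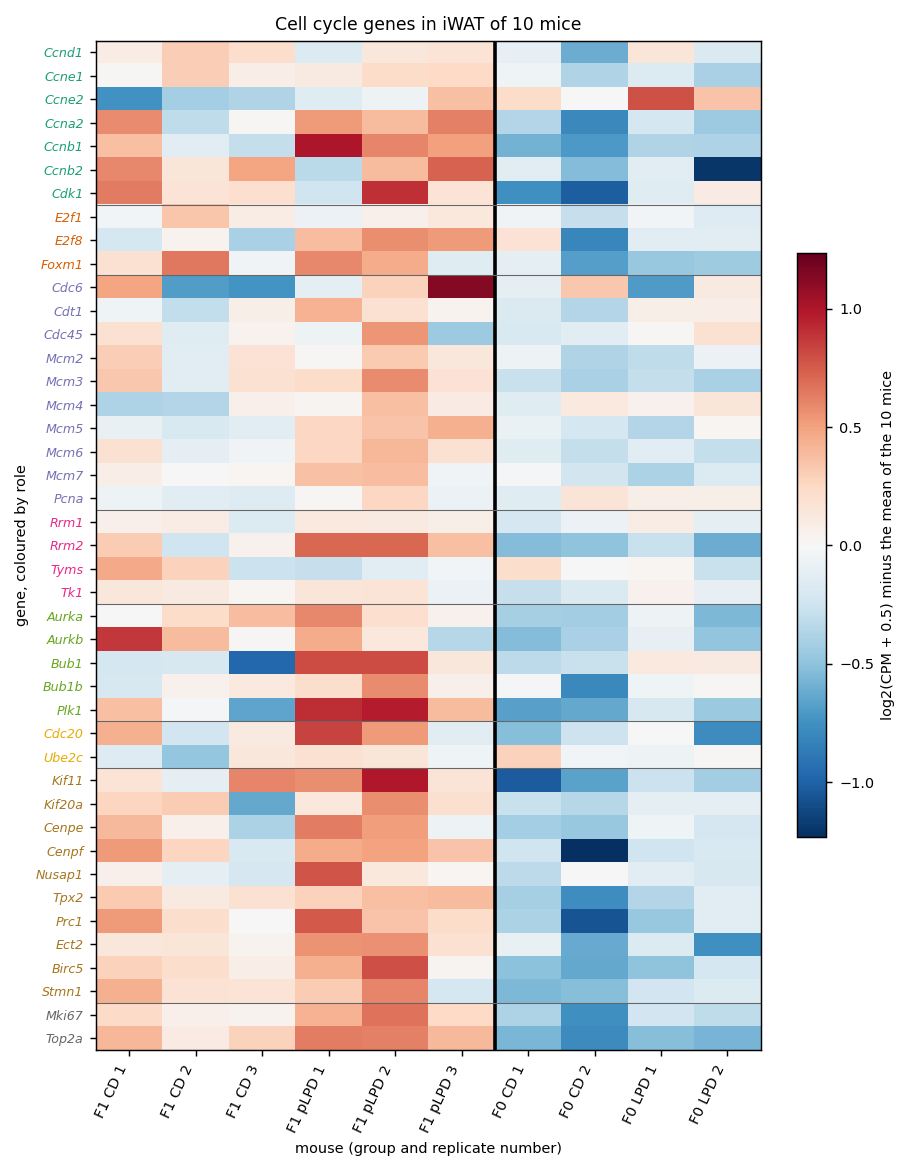
Heat map of log2(CPM + 0.5) of each gene relative to its mean over the 10 mice, with genes grouped and coloured by role (rows) and mice by group (columns). Most rows are red in the 6 F1 mice left of the black line and blue in the 4 F0 mice, while Ccne2 runs the other way and Pcna and Rrm1 stay pale.

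Both genes of chromosome structure were higher in F1. Top2a, which encodes the topoisomerase that untangles replicated chromosomes, lies at chr11:98992943-99024189 (minus strand, mm10). Its level was 35.2, 28.4 and 32.3 CPM in the offspring of CD fathers, 41.2, 41.1 and 35.1 CPM in pLPD offspring, 17.8 and 15.2 CPM in CD-fed F0 males and 18.3 and 17.7 CPM in LPD-fed F0 males. Every F1 mouse lay above every F0 mouse, and the mean was 35.5 ± 5.01 CPM (SD, n = 6) in F1 and 17.2 ± 1.39 CPM (SD, n = 4) in F0 (log2 fold change 1.04 ± 0.0942 (SE), adjusted p = 7.55e-06). Mki67 (chr7:135689784-135716361, minus strand) was at 76.8, 67.7 and 67.1 CPM in the offspring of CD fathers, 87.6, 104 and 77.0 CPM in pLPD offspring, 49.7 and 38.2 CPM in CD-fed F0 males and 55.0 and 52.1 CPM in LPD-fed F0 males. The highest F0 mouse stood below the lowest F1 mouse (log2 fold change 0.71 ± 0.0967 (SE), adjusted p = 1.56e-04). These 2 genes and Kif11 passed the threshold in all 12 alternatives and whichever of the 10 mice was left out.

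Among the 10 genes of the spindle, centromere and cytokinesis, 8 were higher in F1 (Kif11, Cenpe, Cenpf, Tpx2, Prc1, Ect2, Birc5 and Stmn1), with a median log2 fold change of 0.76 over the 10. Kif11, the kinesin that pushes spindle poles apart, lies at chr19:37376403-37421859 (plus strand) and had the largest log2 fold change of all 43 genes. Its level was 7.83, 6.37 and 10.8 CPM in the offspring of CD fathers, 10.6, 14.2 and 7.79 CPM in pLPD offspring, 3.13 and 4.20 CPM in CD-fed F0 males and 5.67 and 5.03 CPM in LPD-fed F0 males. All 6 F1 mice lay above all 4 F0 mice (log2 fold change 1.10 ± 0.210 (SE), adjusted p = 0.00167). Prc1, which bundles the microtubules of the midzone, was at 9.71, 7.75 and 6.59 CPM in the offspring of CD fathers, 11.5, 8.54 and 7.79 CPM in pLPD offspring, 4.92 and 2.90 CPM in CD-fed F0 males and 4.62 and 5.97 CPM in LPD-fed F0 males. The generations did not overlap (log2 fold change 0.93 ± 0.200 (SE), adjusted p = 0.00349), although many of its reads matched more than a single place, as given above.
Birc5, which encodes survivin of the chromosomal passenger complex, was at 2.70, 2.55 and 2.28 CPM in the offspring of CD fathers, 3.06, 4.07 and 2.18 CPM in pLPD offspring, 1.34 and 1.20 CPM in CD-fed F0 males and 1.37 and 1.75 CPM in LPD-fed F0 males. Again no F0 mouse reached the lowest F1 mouse (log2 fold change 0.99 ± 0.277 (SE), adjusted p = 0.0155). Stmn1, which encodes a protein that takes microtubules apart, was at 12.5, 10.4 and 10.3 CPM in the offspring of CD fathers, 11.5, 14.1 and 7.79 CPM in pLPD offspring, 6.04 and 6.19 CPM in CD-fed F0 males and 7.67 and 8.07 CPM in LPD-fed F0 males. The pLPD offspring number 3 lay within the F0 range and the other 5 F1 mice above it (log2 fold change 0.68 ± 0.161 (SE), adjusted p = 0.00616). Cenpe, Cenpf, Tpx2 and Ect2 had log2 fold changes of 0.55, 0.83, 0.75 and 0.76. Kif20a and Nusap1 did not pass, at 0.44 (adjusted p = 0.146 in edgeR, but 0.64 and 0.0353 on uniquely matching reads) and 0.32 (adjusted p = 0.25 in edgeR).

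Of the mitotic kinases and checkpoint genes, Aurka, Aurkb and Plk1 were higher in F1, and Bub1 and Bub1b did not pass. Plk1, a kinase of mitotic entry and of the spindle, was at 3.51, 2.55 and 1.48 CPM in the offspring of CD fathers, 5.36, 5.56 and 3.58 CPM in pLPD offspring, 1.46 and 1.5 CPM in CD-fed F0 males and 2.21 and 1.75 CPM in LPD-fed F0 males. The lowest F1 mouse, offspring number 3 of a CD father, lay within the F0 range (log2 fold change 1.02 ± 0.283 (SE), adjusted p = 0.0147). Aurka and Aurkb, kinases of the spindle pole and of the centromere, had log2 fold changes of 0.71 (adjusted p = 0.0354 in edgeR) and 0.76 (adjusted p = 0.0401 in edgeR). Bub1 and Bub1b, which act in the checkpoint for chromosome attachment, were at 0.22 and 0.38. Neither gene of the anaphase promoting complex passed. Cdc20, its activator, was at 0.76 (adjusted p = 0.0633 in edgeR), and Ube2c, its ubiquitin-conjugating enzyme, at −0.094 (adjusted p = 0.787 in edgeR).

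The mitotic cyclins Ccnb1 and Ccnb2, the S and G2 cyclin Ccna2 and their kinase Cdk1 were higher in F1, Ccne1 and Ccnd1 of G1 did not pass, and Ccne2 was lower. Ccnb1 was at 3.51, 2.31 and 2.02 CPM in the offspring of CD fathers, 5.66, 4.20 and 3.90 CPM in pLPD offspring, 1.57 and 1.40 CPM in CD-fed F0 males and 1.89 and 1.87 CPM in LPD-fed F0 males. Its F1 and F0 mice did not overlap (log2 fold change 1.04 ± 0.258 (SE), adjusted p = 0.00787). Ccnb2 was at 3.64, 2.55 and 3.36 CPM in the offspring of CD fathers, 1.68, 3.12 and 4.05 CPM in pLPD offspring, 2.01 and 1.40 CPM in CD-fed F0 males and 2.00 and 0.702 CPM in LPD-fed F0 males. Both generations overlapped through the pLPD offspring number 1 (log2 fold change 1.0 ± 0.340 (SE), adjusted p = 0.039).
Ccna2 was at 8.64, 4.40 and 5.64 CPM in the offspring of CD fathers, 8.27, 7.46 and 8.88 CPM in pLPD offspring, 4.25 and 3.0 CPM in CD-fed F0 males and 4.73 and 3.98 CPM in LPD-fed F0 males. The second offspring of a CD father lay within the F0 range and the other F1 mice above it (log2 fold change 0.84 ± 0.210 (SE), adjusted p = 0.00841). Cdk1 was at 5.80, 4.05 and 4.17 CPM in the offspring of CD fathers, 2.91, 7.05 and 4.05 CPM in pLPD offspring, 1.90 and 1.5 CPM in CD-fed F0 males and 3.15 and 3.86 CPM in LPD-fed F0 males. The pLPD offspring number 1 lay within the F0 range, which was itself split by diet (log2 fold change 0.94 ± 0.271 (SE), adjusted p = 0.0177).
Ccnd1, the cyclin D of G1, was at 44.4, 51.7 and 48.5 CPM in the offspring of CD fathers, 37.1, 46.0 and 46.9 CPM in pLPD offspring, 38.8 and 27.1 CPM in CD-fed F0 males and 46.3 and 36.8 CPM in LPD-fed F0 males. The generations overlapped (log2 fold change 0.31 ± 0.112 (SE), adjusted p = 0.0525). It passed on uniquely matching reads (0.47, adjusted p = 0.013 in edgeR) and between the CD groups alone (0.55, adjusted p = 0.0345 in edgeR). Between pLPD offspring, themselves fed CD, and LPD-fed F0 males it was at 0.065. Ccne2, a cyclin E of the step into S phase, was at 1.75, 2.31 and 2.42 CPM in the offspring of CD fathers, 2.91, 3.12 and 4.36 CPM in pLPD offspring, 3.92 and 3.30 CPM in CD-fed F0 males and 5.99 and 4.33 CPM in LPD-fed F0 males. It was higher in the older mice, and 2 pLPD offspring and all offspring of CD fathers lay below the F0 range (log2 fold change −0.65 ± 0.218 (SE), adjusted p = 0.0351). Its call held in 4 of the 10 fits that left out 1 mouse. It was not past the threshold on uniquely matching reads, where its log2 fold change was −0.84 (adjusted p = 0.097 in edgeR). Ccne1, the other cyclin E, was at 0.45 (adjusted p = 0.0619 in edgeR) with no overlap between the generations.

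**Figure D3:**
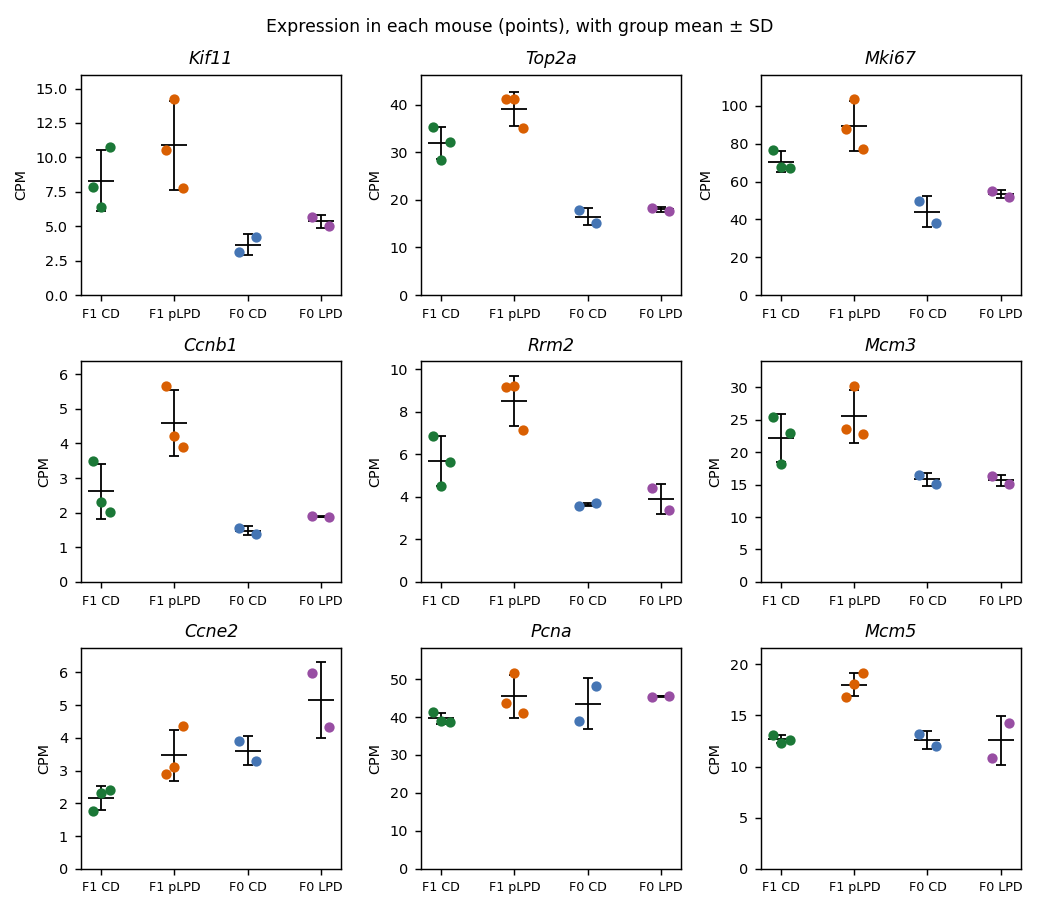
CPM of 9 genes in each mouse (points), with group mean and SD (bars), each panel with its own axis from 0. F1 mice lie above F0 mice in Kif11, Top2a, Mki67, Ccnb1, Rrm2 and Mcm3, Ccne2 runs the other way with overlap, and Pcna shows no separation. In Mcm5 the 3 pLPD offspring lie above the other 7 mice.

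Of the transcription factors, only Foxm1 passed. Foxm1, the activator of G2 and mitosis genes, was at 6.21, 8.80 and 5.24 CPM in the offspring of CD fathers, 8.42, 7.59 and 4.83 CPM in pLPD offspring, 4.92 and 3.20 CPM in CD-fed F0 males and 3.78 and 3.86 CPM in LPD-fed F0 males. The pLPD offspring number 3 lay within the F0 range and the other F1 mice above it (log2 fold change 0.80 ± 0.223 (SE), adjusted p = 0.0145). E2f1, an activator of S phase genes, was at 7.56, 9.95 and 8.33 CPM in the offspring of CD fathers, 7.35, 8.14 and 8.57 CPM in pLPD offspring, 7.50 and 6.29 CPM in CD-fed F0 males and 7.57 and 6.90 CPM in LPD-fed F0 males. The generations overlapped (log2 fold change 0.24 ± 0.139 (SE), adjusted p = 0.214). E2f8, a repressor of the same family, was at 0.42 (adjusted p = 0.298 in edgeR).

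In replication, 4 of 10 genes were higher in F1, all of them subunits of the MCM helicase (Mcm2, Mcm3, Mcm6 and Mcm7), while Mcm4, Mcm5, the loading factors Cdc6 and Cdt1, the helicase partner Cdc45 and the clamp Pcna did not pass. Mcm3 had the largest log2 fold change of the 6 helicase genes, 0.60 (adjusted p = 0.00217 in edgeR), and Mcm2, Mcm6 and Mcm7 were at 0.35, 0.38 and 0.35. Mcm4 was at −0.069. Mcm5 was at 13.1, 12.3 and 12.6 CPM in the offspring of CD fathers, 16.8, 18.0 and 19.2 CPM in pLPD offspring, 13.2 and 12.0 CPM in CD-fed F0 males and 10.8 and 14.3 CPM in LPD-fed F0 males. The pLPD offspring lay above all other mice, and the offspring of CD fathers lay within the F0 range (log2 fold change 0.27 ± 0.108 (SE), adjusted p = 0.0748). Pcna was at 41.3, 39.0 and 38.7 CPM in the offspring of CD fathers, 43.6, 51.7 and 41.0 CPM in pLPD offspring, 38.8 and 48.2 CPM in CD-fed F0 males and 45.4 and 45.5 CPM in LPD-fed F0 males. The generations overlapped, and the interval of the difference was −0.25 to 0.11 on the log2 scale (log2 fold change −0.067 ± 0.0842 (SE), adjusted p = 0.574). Cdc6, Cdt1 and Cdc45 had log2 fold changes of 0.26, 0.17 and 0.10.

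In nucleotide synthesis, 1 of 4 genes was higher in F1. Rrm2, the subunit of ribonucleotide reductase made in S phase, was at 6.88, 4.51 and 5.64 CPM in the offspring of CD fathers, 9.19, 9.22 and 7.17 CPM in pLPD offspring, 3.58 and 3.70 CPM in CD-fed F0 males and 4.41 and 3.39 CPM in LPD-fed F0 males. No F0 mouse reached the F1 range (log2 fold change 0.88 ± 0.183 (SE), adjusted p = 0.00289). Its partner subunit Rrm1, which is more stable over the cycle, was at 0.12 (adjusted p = 0.294 in edgeR). Tyms, which makes thymidylate, was at 8.37, 7.29 and 4.84 CPM in the offspring of CD fathers, 4.75, 5.29 and 5.77 CPM in pLPD offspring, 6.94 and 5.89 CPM in CD-fed F0 males and 5.99 and 4.80 CPM in LPD-fed F0 males. The generations overlapped widely (log2 fold change 0.028 ± 0.182 (SE), adjusted p = 0.92). Tk1, the salvage kinase of thymidine, was at 0.22 (adjusted p = 0.106 in edgeR), on reads of which few were unique.

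**Figure D4:**
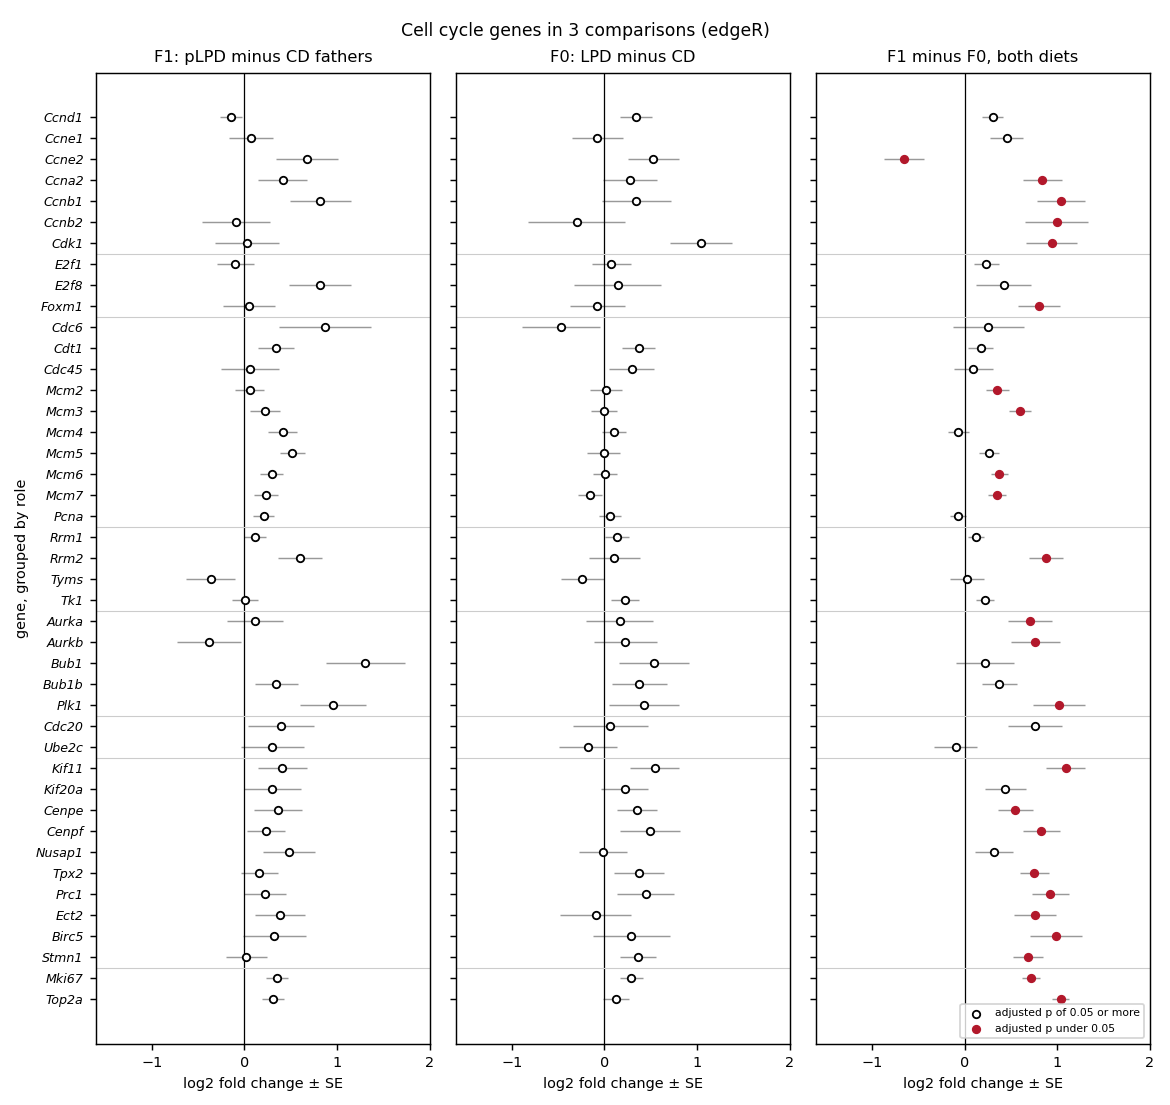
Log2 fold change ± SE of each gene, grouped by role, for pLPD against CD fathers in F1 (3 against 3 mice), LPD against CD in F0 (2 against 2) and F1 against F0 (6 against 4). Filled points passed an adjusted p of 0.05 and occur only in the right panel, where 23 lie above 0 and Ccne2 below.

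Markers of other cell types were read in the same fit. T cell markers were higher in F1 in 7 of 8 genes (87.5%, against 16.4% of all genes), with summed levels of 179 to 239 CPM in F0 and 253 to 377 CPM in F1. B cell markers were lower in 2 of 8 (25.0%, against 16.1% of all genes) and summed to 614 to 849 and 547 to 759 CPM. None of the B or T cell markers was at 0 in any mouse. Endothelial markers were higher in 4 of 8, with sums of 529.6 to 596 and 532 to 871 CPM. Adipocyte markers were lower in 6 of 8, progenitor markers in 2 of 8, macrophage markers in 2 of 7 and skeletal muscle markers in all 8, the last with sums of 662 to 2165 CPM in F0 and 37.3 to 152 CPM in F1. Germinal centre markers were lower in 1 of 4 tested. Of the erythroid markers 1 of 7 was lower, and of the epithelial markers none of 5 passed. By sign, 5 of 8 progenitor markers were positive, with a median log2 fold change of 0.098. Positive too were 2 of 7 macrophage, 2 of 4 germinal centre, 2 of 7 erythroid and 4 of 5 epithelial markers. All 8 T cell, 6 of 8 endothelial and 1 of 8 B cell markers were positive, and 0 of the adipocyte and muscle markers. The part of these cells in the higher level of the cell cycle genes was not tested.

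The second comparison asks whether the father's diet was tied to the level of these genes in the offspring. No gene of the 43 passed the threshold in either direction in edgeR, nor in DESeq2, against 0.142% of 14049 genes called higher and 1.02% called lower, or 1.17% in either direction. At an unadjusted p under 0.05, 10 were higher in pLPD offspring (23.3%, against 6.57% of all genes) and 0 were lower (8.76% of all genes). The log2 fold change was positive for 38 of 43 (88.4%, against 51.4% of all genes), with a median of 0.30 against 0.0074 over all genes. Without the pLPD offspring number 2 the median was 0.16 with 32 genes positive. Over all 6 fits that left out 1 mouse it was 0.16 to 0.36. On RPKM the median of the 43 genes was 0.12 with 28 positive, while that of all genes moved to −0.15. In 9 genes (20.9%, against 9.21%), every pLPD offspring lay above every offspring of a CD father. They were Ccne2, Ccnb1, E2f8, Mcm5, Rrm2, Bub1, Plk1, Ect2 and Mki67. No gene separated in the other direction (10.9% of all genes did). With 3 mice against 3, an exact two-sided permutation test cannot give less than 0.1.

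Mcm5 came nearest to the threshold, at a mean of 18.0 ± 1.16 CPM in pLPD offspring and 12.7 ± 0.411 CPM with CD fathers (SD, n = 3 each) (log2 fold change 0.52 ± 0.137 (SE), adjusted p = 0.1). Bub1 had the largest difference on the fewest reads. Its level was 1.48, 1.5 and 0.672 CPM in the offspring of CD fathers and 3.52, 3.53 and 2.03 CPM in pLPD offspring, and the lowest mouse, with a CD father, had 5 reads (log2 fold change 1.30 ± 0.428 (SE), adjusted p = 0.174). Mki67, with the values given above, had an adjusted p of 0.177 in edgeR and a log2 fold change of 0.35, with a 95% interval of 0.10 to 0.61. Plk1 was at 0.95 (0.17 to 1.74), Ccnb1 at 0.82 (0.10 to 1.54), Rrm2 at 0.60 (0.085 to 1.12) and Top2a at 0.31 (0.045 to 0.57). E2f8, Mcm4 and Mcm6 were at 0.81, 0.41 and 0.29, the last 2 with overlap between the groups.

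Ccnd1, E2f1, Tyms, Aurkb and Ccnb2 had log2 fold changes below 0. Aurkb was at −0.38 (−1.13 to 0.37), the lowest of the 43, and Ccnb2 at −0.093 (−0.90 to 0.71). Ccnd1 was at −0.15 (−0.40 to 0.11), E2f1 at −0.10 (−0.53 to 0.34), Tyms at −0.37 (−0.94 to 0.21), Cdk1 at 0.027 (−0.73 to 0.78) and Foxm1 at 0.048 (−0.56 to 0.66). Stmn1, Birc5, Pcna and Kif11 were at 0.022, 0.32, 0.21 and 0.41. For 31 of the 43 genes the 95% interval lay within 1 on the log2 scale in both directions (a factor of 2), and for the remaining genes it reached further. The directions of Cdk1, Stmn1, Foxm1, E2f1, Tyms and Ccnd1 turned under at least 1 other processing, which was read gene by gene for only part of the 43 genes.

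By mouse, the median of the 43 genes relative to their mean over all mice was 0.19, 0.050 and 0.046 in the offspring of CD fathers, and it was 0.31, 0.39 and 0.16 in pLPD offspring, on the log2 scale. The pLPD offspring number 2 was the highest F1 mouse for 20 genes, and 36 of the 43 genes had a pLPD offspring as their highest F1 mouse. The same libraries held the lower exon shares given above. T cell markers summed to 253 to 301 CPM with CD fathers and 302 to 377 CPM in pLPD offspring. Of these 8 genes 0 were called, all were positive and 6 were higher at an unadjusted p under 0.05. B cell markers summed to 547 to 651 and 553 to 759 CPM, with 0 of 8 called, all 8 positive and 1 higher at an unadjusted p under 0.05. Macrophage markers, 5 of 7 of them called lower (Adgre1, C1qa, Cd163, Csf1r and Lyz2), summed to 1037 to 1274 and 721 to 829 CPM. Progenitor markers summed to 725 to 834 and 527 to 704 CPM, with 0 of 7 called, 6 negative and 5 lower at an unadjusted p under 0.05. Endothelial markers summed to 631 to 871 and 532 to 689.6 CPM, with 0 of 8 called, all 8 negative and 4 lower at an unadjusted p under 0.05. Epithelial markers, with Krt8, Krt18 and Krt19 called lower, summed to 16.5 to 21.5 and 2.60 to 5.29 CPM. Their part in the values of the cell cycle genes was not tested.

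The third comparison concerns the diet of the F0 males themselves. Again 0 of the 43 genes passed the threshold in edgeR or DESeq2, against 1.18% of 14581 genes called higher and 1.32% called lower, or 2.5% in either direction. At an unadjusted p under 0.05, Cdk1 and Mki67 were higher in LPD-fed males (4.65%, against 7.53% of all genes) and 0 genes were lower (8.2% of all genes). The median log2 fold change was 0.17 against 0.00035 over all genes, and 32 of 43 were positive (74.4%, against 50.1%). In 16 genes (37.2%, against 22.8%), both LPD-fed males lay above both CD-fed males, and in 0 genes below (against 23.6%). With 2 mice against 2, an exact two-sided permutation test cannot give less than 0.333.

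Cdk1 differed most, with the LPD-fed males at 3.15 and 3.86 CPM above the CD-fed males at 1.90 and 1.5 CPM (log2 fold change 1.04 ± 0.338 (SE), adjusted p = 0.167). Mki67 was at 0.29 (95% interval 0.0051 to 0.57) and Kif11 at 0.54 (−0.057 to 1.14). Leaving out 1 male moved Mki67 between 0.11 and 0.49, Top2a between 0.017 and 0.24 and Ccnd1 between 0.10 and 0.62. Top2a, Rrm2 and Pcna were at 0.13 (−0.19 to 0.45), 0.11 (−0.52 to 0.74) and 0.059 (−0.20 to 0.32). Ccnb1, Ccnd1, Stmn1 and Birc5 were at 0.34, 0.34, 0.36 and 0.29, and Mcm5, E2f1, Foxm1 and Tyms at −0.0086, 0.075, −0.078 and −0.24. B cell markers summed to 614 to 703 CPM in CD-fed and 808 to 849 CPM in LPD-fed males. All 8 were positive, 7 were higher at an unadjusted p under 0.05 and Ms4a1 was called higher. Skeletal muscle markers summed to 1412 to 2165 and 662 to 910.3 CPM, with 6 of 8 called lower. Progenitor markers summed to 776 to 828 and 680.2 to 685 CPM, with 0 of 7 called and 5 of 7 lower in both LPD-fed males than in both CD-fed males. Erythroid markers summed to 894 to 1487 and 1522 to 2007 CPM, all 6 tested were positive and Slc4a1 was called higher. The macrophage gene Cd163 (−0.47) and the adipocyte gene Retn (−0.78) were called lower. Each was the only gene of its list that was called. Of the 7 macrophage markers 3 were positive and 4 negative. Of the 8 adipocyte markers 7 were positive and 1, Retn, was negative. The part of these cells was not tested.

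Whether the diet difference itself differed between the generations was tested as an interaction in a fit of all 10 mice. None of the 43 genes passed in edgeR, against 0.357% of 15111 genes higher, 0.893% lower and 1.25% in either direction. The difference was positive for 27 genes (62.8%, against 49.6%), but for 20 genes without the CD-fed F0 male number 1, where the median turned from 0.12 to −0.030, and for 22 without the pLPD offspring number 2. At an unadjusted p under 0.05, 1 was higher (2.33%, against 4.91%) and 1 lower (against 7.58%). These were Mcm5, with a difference of 0.52 on the log2 scale (adjusted p = 0.325 in edgeR), and Ccnd1, with −0.50 (adjusted p = 0.379 in edgeR). DESeq2 called 0 as well. Cdk1, which had the largest diet difference in F0, had a difference between the generations of −1.02 (adjusted p = 0.471 in edgeR).

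Further genes of the same pathways were read for comparison. Of 22 other replication genes, 5 (22.7%, against 16.4% of all genes) were higher in F1 and 0 lower than in F0. They were Uhrf1, which couples replication to DNA methylation (log2 fold change 0.78 ± 0.139 (SE), adjusted p = 9.90e-04), Gmnn, the inhibitor of licensing (log2 fold change 0.94 ± 0.309 (SE), adjusted p = 0.0325), Fen1 and Lig1, which act in the maturation of Okazaki fragments (0.57 and 0.46), and Pold1, the catalytic subunit of polymerase delta (0.31). Of 36 other mitosis genes, 14 (38.9%) were higher in F1 and 0 lower. They included the kinesin Kif4 (log2 fold change 1.31 ± 0.264 (SE), adjusted p = 0.00231) and the spindle protein Hmmr (log2 fold change 1.15 ± 0.254 (SE), adjusted p = 0.00393). Pbk, a mitotic kinase, was the most different at 1.53 ± 0.738 CPM (SD, n = 6) in F1 and 0.325 ± 0.159 CPM (SD, n = 4) in F0, where it had 1 to 4 reads per mouse.
Among 14 cyclins, kinases and activators of G1, 1 (7.14%) was higher in F1: E2f2, an activating E2F factor, was at 28.7, 26.7 and 14.9 CPM in the offspring of CD fathers, 20.1, 14.1 and 12.3 CPM in pLPD offspring, 6.16 and 6.89 CPM in CD-fed F0 males and 9.77 and 8.42 CPM in LPD-fed F0 males. All F1 mice lay above all F0 mice (log2 fold change 1.30 ± 0.197 (SE), adjusted p = 3.39e-04). Pole, the catalytic subunit of DNA polymerase epsilon, was the replication gene that differed by paternal diet, and no other gene of these lists for the cell cycle did. It was at 7.83, 6.13 and 7.12 CPM in the offspring of CD fathers, 16.2, 13.4 and 13.9 CPM in pLPD offspring, 9.85 and 10.6 CPM in CD-fed F0 males and 8.83 and 9.36 CPM in LPD-fed F0 males. The pLPD offspring lay above all other mice (log2 fold change 1.06 ± 0.180 (SE), adjusted p = 0.0228), on 53 to 106 exon reads per mouse. The call held in 2 of the 6 fits that left out 1 F1 mouse, with log2 fold changes of 0.96 to 1.14 and adjusted p of 0.0178 to 0.121 in edgeR. It was lost without pLPD offspring number 1 or 2 and without number 1 or 2 of the CD fathers' offspring, as it was with the exon share in the fit (0.80, adjusted p = 0.462 in edgeR), on gene reads with introns (0.72, adjusted p = 0.0522 in edgeR) and on RPKM (0.74, adjusted p = 0.0849 in limma). On intron reads alone the log2 fold change of Pole was −0.052 (adjusted p = 0.958 in edgeR). Between the generations it was at 0.064 (adjusted p = 0.718 in edgeR).

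Of 11 inhibitors of cyclin-dependent kinases and pocket proteins, 3 (27.3%, against 16.4% of all genes) were higher in F1 and 1 was lower. Cdkn1a, which encodes the inhibitor p21, was at 56.4, 52.0 and 32.8 CPM in the offspring of CD fathers, 47.8, 42.4 and 40.8 CPM in pLPD offspring, 9.18 and 9.49 CPM in CD-fed F0 males and 17.7 and 24.4 CPM in LPD-fed F0 males. All F1 mice lay above all F0 mice (log2 fold change 1.69 ± 0.153 (SE), adjusted p = 7.13e-06), and among F0 the LPD-fed males lay above the CD-fed (log2 fold change 1.17 ± 0.186 (SE), adjusted p = 0.0191). Cdkn2c, which encodes p18, was at 79.3, 84.5 and 84.8 CPM in the offspring of CD fathers, 79.9, 108 and 109.6 CPM in pLPD offspring, 74.4 and 78.1 CPM in CD-fed F0 males and 47.0 and 44.7 CPM in LPD-fed F0 males. It was higher in F1 (log2 fold change 0.62 ± 0.0866 (SE), adjusted p = 2.00e-04) and lower in LPD-fed than CD-fed F0 males (log2 fold change −0.73 ± 0.0872 (SE), adjusted p = 0.00748). Cdkn2d, which encodes p19, was at 0.68 (adjusted p = 0.00561 in edgeR), and Rb1, the retinoblastoma protein, at −0.21 (adjusted p = 0.0243 in edgeR). Of 12 targets of p53, 4 (33.3%) were higher in F1: the death genes Bbc3 (0.93) and Bax (0.44), Gadd45b (0.72) and Trp53inp1 (0.21). In F0, LPD-fed males had higher Btg2 (log2 fold change 0.58 ± 0.0911 (SE), adjusted p = 0.0189) and Sesn2 (log2 fold change 1.24 ± 0.198 (SE), adjusted p = 0.0191). Cdkn2c passed whichever F0 male was left out, and Cdkn1a, Btg2 and Sesn2 each passed in 2 of these 4 fits: all 3 genes passed without the LPD-fed male number 1, and none of them without the LPD-fed male number 2. On RPKM, Cdkn1a, Btg2 and Sesn2 had adjusted p of 0.061, 0.0686 and 0.0707 in limma, and Btg2 had 0.0698 in the edgeR fit of all 4 groups. On intron reads alone Cdkn2c was at 0.12 (adjusted p = 0.91 in edgeR), a sign opposite to that on exon reads, and Cdkn1a and Btg2 did not pass (adjusted p = 0.115 and 0.0759 in edgeR). Neither list had a gene called between the paternal diets.

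**Figure D5:**
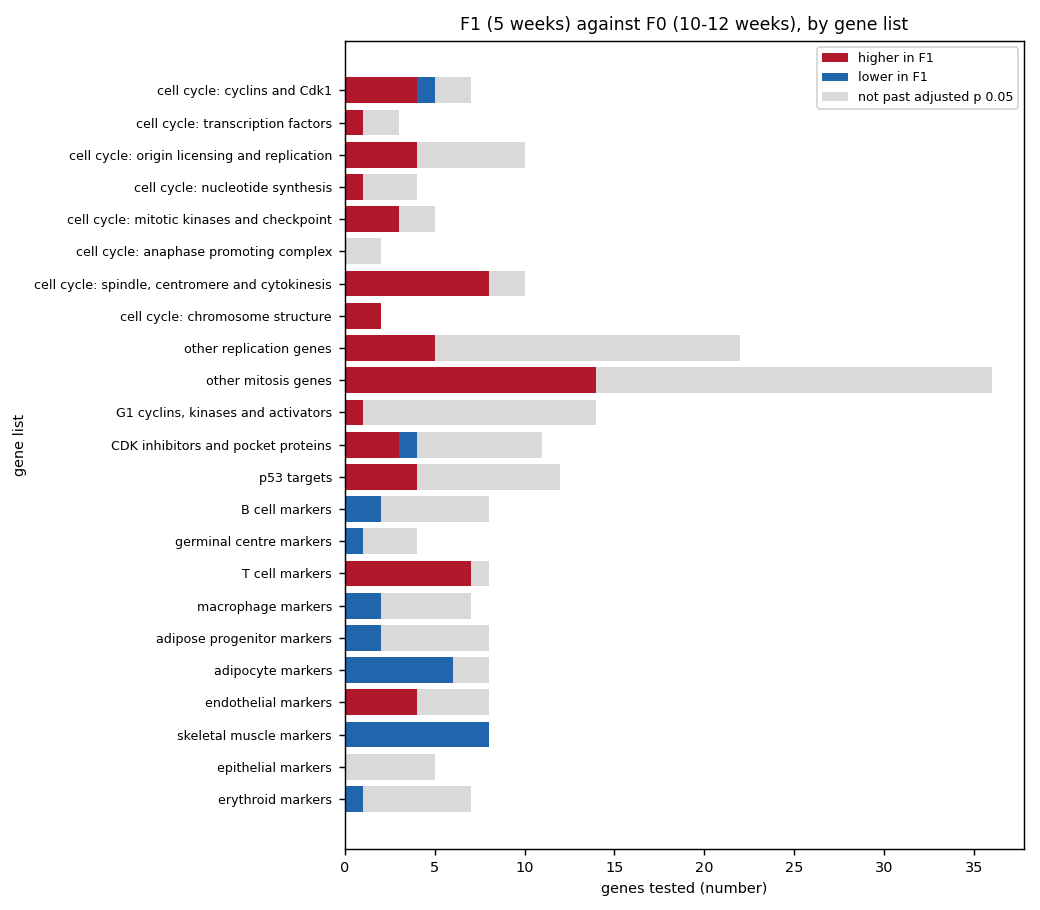
Number of genes tested per list (bar length), with those higher in F1 in red, lower in F1 in blue and not past an adjusted p of 0.05 in grey. The 8 role groups of the 43 genes are at the top, where 8 of 10 spindle genes and 4 of 10 replication genes were higher, and the cell type markers are at the bottom.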

How the data were processed

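Per the labels and the study's methods, rRNA-depleted total RNA of iWAT from 10 mice was sequenced as paired reads of 36 bases, mapped to mm10 in CLC Genomics Workbench and summed per gene. The deposited tables hold counts of reads per gene (total exon, unique exon, intron and gene reads), and RPKM and TPM values scaled by the authors, of which TPM was not used. Total exon read counts were tested in edgeR (4.0.16, R 4.3.3) after filterByExpr and TMM scaling, with the quasi-likelihood F test (two-sided) and Benjamini-Hochberg adjustment over all genes tested at 0.05. F1 and F0 diets were fitted alone, and generation and interaction on all 10 libraries. Replicates are separate mice. CPM values are TMM-scaled, log values for exact permutation tests had 0.5 CPM added, and RPKM had 0.1 added before limma (3.58.1). DESeq2 (1.42.0) was an alternative. The 43 genes and all lists were chosen with earlier results of these data known, so that no list gives independent support. Values in every mouse are given for a fixed panel, for members past the threshold in a diet comparison and for the 10 largest differences between generations. Promoter windows are RefSeq's, matched by symbol. The fits were tested on simulated data. Counting intervals cover counting error only.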

Additional observations from a re-analysis of the deposited data

Results flagged for a closer look

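None of the 43 genes differed between F1 and F0 in its response to diet by the interaction test in edgeR (adjusted p under 0.05), and no group held the 4 mice needed to look for a single mouse standing apart. Among the other listed genes, 7 did, with 209 listed genes tested when the 43 are included. Over all 15111 genes, 189 (1.25%) did. The difference in log2 fold change (pLPD against CD in F1, minus LPD against CD in F0) was 1.22 for Pole, a DNA polymerase gene (adjusted p = 0.0306 in edgeR), and 1.0 for Cdkn2c, an inhibitor of cyclin-dependent kinases (adjusted p = 0.0189 in edgeR). For Pole the diet difference was 1.06 in F1 and −0.17 in F0, and for Cdkn2c it was 0.27 and −0.73.

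The others were markers of other cell types. The macrophage marker Adgre1 differed by −0.70, the adipocyte gene Retn by 1.01 and the erythroid gene Slc4a1 by −4.06. The muscle myosins Myh2 and Myh7 differed by 4.01 and 7.10, fitted values that rest on few reads in F1 and depend on the prior count. Each of these genes passed an adjusted p of 0.05.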

How the results depend on the processing

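Between F1 and F0, 23 genes were higher and 1 was lower. The count of higher genes moved to 13 on RPKM, 8 with CD groups only and, in alternatives chosen after seeing the data, 11 with LPD groups only, 9 on intron reads and 8 with the exon share as covariate. Over all genes, 1082 of 15111 were higher on RPKM and 1434 of 14766 with CD groups only. With LPD groups only 1182 of 14299 were higher, on intron reads 1635 of 14823 and with the exon share 1759 of 15111. The main fit called 2474 of 15111 higher. The count of lower genes became 0 with DESeq2, unique reads, CD groups only, LPD groups only and the exon share. Leaving out 1 mouse gave 12 to 22 higher and 0 to 1 lower genes. The other settings gave 20 to 25 higher genes, among them another size factor, no filter on low counts and gene reads with introns. Over all genes, these settings called from 2125 of 15111 (DESeq2) to 2654 of 17224 (gene reads with introns) higher. The paternal diet, F0 diet and interaction counts were 0, and stayed 0 to 0 when a mouse was left out. With the replicate number as a block, 2 genes were called higher between the F0 diets and 21 higher and 1 lower between generations. Over all genes, that fit called 656 higher and 735 lower between the F0 diets, against 172 and 192 in the main fit. Deviations of same-numbered mice correlated at 0.0736, 0.0091 and 0.0151 in F1 and 0.0563 in F0. With 2 mice per F0 group, every pairing gives 0.0563 or −0.0563. Such values cannot tell whether same-numbered mice shared a litter, a cage or a batch. Signs that turned for the F1 diet were Stmn1 (unique reads −0.030, RPKM −0.18, exon share −0.14), Cdk1 (RPKM −0.17, block −0.0201, intron −0.037), Foxm1 (RPKM −0.10, exon share −0.29), Tyms (intron 0.36), E2f1 (intron 0.23, exon share 0.14) and Ccnd1 (exon share 0.17). For the F0 diet they were Ccnb1 (unique reads −0.42), Foxm1 (gene reads 0.041), Mki67 (intron −0.11), Ccnd1 (intron −0.41) and Tyms (intron 0.40), and between generations Tyms (RPKM −0.13, LPD groups only −0.030) and Pcna (intron 0.49, LPD groups only 0.010). Leaving out 1 mouse turned E2f1 (−0.047 to 0.20), Foxm1 (−0.36 to 0.26), Mcm5 (−0.22 to 0.18), Pcna (−0.087 to 0.23) and Rrm2 (−0.10 to 0.28) in F0, Cdk1 (−0.42 to 0.28), E2f1 (−0.18 to 0.023), Foxm1 (−0.10 to 0.29) and Stmn1 (−0.20 to 0.22) in F1, and Pcna (−0.14 to 0.014) and Tyms (−0.053 to 0.12) between generations. The causes were not tested. Genes with few reads, such as Bub1 and Birc5, have wide intervals at this depth.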

Other observations

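The main comparisons used exon reads only, and intron reads entered as alternatives. Introns took a median of 24.7% of a gene's reads in F0 (1.18% to 60.0%) and 19.0% in F1 (5.73% to 56.5%). On intron reads alone, 32 of the 43 genes could be tested between the generations, of which 9 were higher in F1 and 1 was lower. The lower gene was Ccne2, at −0.74 on the log2 scale (adjusted p = 0.02 in edgeR). Over all 14823 genes tested on intron reads, 1635 were higher in F1 and 1787 lower.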
